A study of Arabidopsis thaliana with 21 samples.

Results

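The sites described here are reproducible crosslink (XL) sites of AtGRP7-GFP that lie in coding exons of Arabidopsis thaliana. They were selected on the deposited lists themselves: a position counted when it was listed as significant in at least 4 of the 5 AtGRP7-GFP libraries at LL36, was not named as intronic, and fell in the coding sequence of the gene model that the deposited list names. There were 6776 such sites, in 377 genes. The number depends on the libraries: requiring 3 of 4, it was 10725 without replicate 3 and 10824 without replicate 4. Which of the filtering steps in the study's methods the deposited lists had passed is not stated in the sources used here, so that "significant" means listed, and "reproducible" means listed in at least 4 of 5 libraries. They made up 35.5% of the 19109 positions that were reproducible at LL36, which also included 9197 sites in 3′ UTRs, 2443 in 5′ UTRs and 561 in introns. In all, 139089 positions were listed in AtGRP7-GFP plants at LL36 and 145822 in any library of the series. Among coding positions just below the requirement, the 6123 listed in 3 libraries had a median mean count of 2.33 crosslinks. The 3742 sites listed in 4 libraries had a median of 3.00, and the 3034 listed in all 5 had a median of 6.00.

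The study used iCLIP, in which UV light joins a protein to the RNA it touches, the protein is pulled down, and the end of the cDNA marks the crosslinked base. Plants were 18 days old according to the labels. They had been grown at 20 °C with light and darkness of 12 h each, moved to continuous light (LL), and crosslinked with 254 nm light at 500 mJ/cm2 after 36 h (LL36) or 24 h (LL24). Each sample was aerial tissue pooled from at least 10 plants. AtGRP7-GFP plants carried AtGRP7::AtGRP7-GFP in the loss-of-function mutant grp7-1, so that the tagged protein was made from the gene's own promoter (5 libraries at LL36 and 3 at LL24). AtGRP7 R49Q-GFP plants carried the same construct with a changed arginine of the RNA-binding domain, also in grp7-1 (2 libraries at LL36 and 3 at LL24). GFP-only plants carried AtGRP7::GFP in Col-0 wild type (5 libraries at LL36 and 3 at LL24).

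AtGRP7 is a glycine-rich RNA-binding protein with an RNA recognition motif at its amino terminus. Its transcript is controlled by the circadian clock, and the protein feeds back on its own pre-mRNA by alternative splicing. Sites in coding exons lie where ribosomes pass, in contrast to the UTRs, in which many known regulatory elements of plant mRNAs are found. Many of the genes described below encode chloroplast or secreted proteins, whose amino terminus carries a transit or signal peptide that is removed from the mature protein.

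The stretches below are the densest 30 nt of sites in genes that the later results turn on. Capitals mark bases that are sites, and all letters are given 5′ to 3′ on the coding strand from the TAIR10.1 assembly.
RBCS1A, codons 3 to 13: CTCTATGCTCTCTTCCGCTACTATGGTTGC
PSAL, codons 15 to 25: CTTCTCCTCCGCTTCTCTTTCTCAGCGTCT
PRP4, codons 13 to 23: TCTTCTCCTTCTTGTGTCGGTTCTCTTATC
THI1, codons 5 to 15: cTTCTACTCtCTCTCTTTCTTCAacCAAAC
GER1, codons 6 to 15: TTCCTCTTATcTCTTCTCTTtGcTCTATCC
GRP-3, codons 5 to 15: CTTTGGTTCTGTTGGGTCTCTTTGCTGTTC
AtGRP7, codons 2 to 12: GTCCGGTgATGTTGAGTATCGGTGCTTCGT
CAT3, codons 22 to 32: gtgcTCCAgTCTCCAAcaAcATcTCTTCcc
PSAN, codons 173 to 182: cTTTGTTTGTTTTCATcTATTCTTATATAA
PSBW, codons 108 to 118: TCTTTGGTTTGATCTGGAcTTTCTTCTTCG
The first 8 lie near the start of their coding sequences and the last 2 at or near the end. In RBCS1A (chr1:25049212-25049241, minus strand, exon 1), PSAL (chr4:7521513-7521542, plus strand, exon 1), PRP4 (chr4:18098381-18098410, minus strand, exon 1) and GRP-3 (chr2:2026230-2026259, plus strand, exon 1), all 30 bases were sites. The share of pyrimidines was 90.0% in the GER1 stretch (chr1:27339884-27339913, minus strand, exon 1) and 86.7% in that of PSAL, but 53.3% in that of AtGRP7 (chr2:9266282-9266311, minus strand, exon 1). The THI1 stretch lies at chr5:22246647-22246676 (plus strand, exon 1) and that of CAT3 at chr1:7144256-7144285 (plus strand, exon 2). That of PSAN lies at chr5:25628690-25628719 (minus strand, exon 3), with the stop codon as its last bases, and that of PSBW at chr2:13019376-13019405 (minus strand, exon 2).

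The libraries of AtGRP7-GFP plants listed 27112 to 85904 positions with 109755 to 402170 crosslinks at LL36, and 8109 to 25115 positions with 27291 to 98235 crosslinks at LL24. Control libraries listed 12 to 2721 positions. Counts are given for listed positions only, so that a position that is not listed may still have had crosslinks. They are not scaled for depth. The shares of coding sites in a single library carry exact 95% binomial intervals, which cover counting error only. Genes of green tissue carried many sites, such as 46 in CA1 for a chloroplast carbonic anhydrase. The root marker PYK10 had 3 such sites, but 8 reproducible sites in all regions and 122 positions listed in any AtGRP7-GFP library at LL36. For CA1 these numbers were 114 and 352. The root hair gene RHD6 had no listed position in any AtGRP7-GFP library at LL36. In pooled tissue, fewer cells of a type and less RNA per cell cannot be told apart, and transcript levels were not analysed here.

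Sites in coding exons were concentrated in a small set of genes. The 377 genes correspond to 1.37% of 27444 annotated coding genes. Of these, 53 genes had a single site and the median was 7 sites per gene (quartiles 3 and 24). The 46 genes with most sites held just over 50% of them, and the 10 genes with most sites held 1155 of them (17.0%). The sites also lay close together along the mRNA. 5388 of the 6776 sites (79.5%) had another site on the adjacent base, and sites no more than 10 nt apart formed 719 groups with a median of 5 sites over 11 nt. The largest group held 100 sites within 109 nt, in RBCS1A. Neighbouring sites of 1 gene are therefore not separate observations of binding.

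RBCS1A (AT1G67090, chromosome 1, 25048158 to 25049667, minus strand), which encodes a small subunit of rubisco, had 173 sites in a coding sequence of 543 nt. It was followed by CAB1 (AT1G29930, 127 sites), for a chlorophyll-binding protein of the light-harvesting complex, and by RBCS3B (AT5G38410, 127 sites), for another rubisco small subunit. CAT3 (AT1G20620), which encodes a catalase, had 114 sites. PSAL (AT4G12800, 107 sites) and PSAF (AT1G31330, 106 sites) encode subunits of photosystem I. The next genes were PRP4 (AT4G38770, 104 sites), for a proline-rich cell wall protein, THI1 (AT5G54770, 101 sites), for the thiazole synthase of thiamine synthesis, and LHCA3 (AT1G61520, 99 sites), for an antenna protein of photosystem I. They were followed by ESM1 (AT3G14210, 97 sites), which modifies the breakdown of glucosinolates, RBCS1B (AT5G38430, 96 sites) and AtGRP7 itself (AT2G21660, 91 sites). TGG1 (AT5G26000, 82 sites) for a myrosinase, RBCS2B (AT5G38420, 82 sites) and GER1 (AT1G72610, 80 sites) for a germin-like protein of the cell wall completed the first 15.

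**Figure D1:**
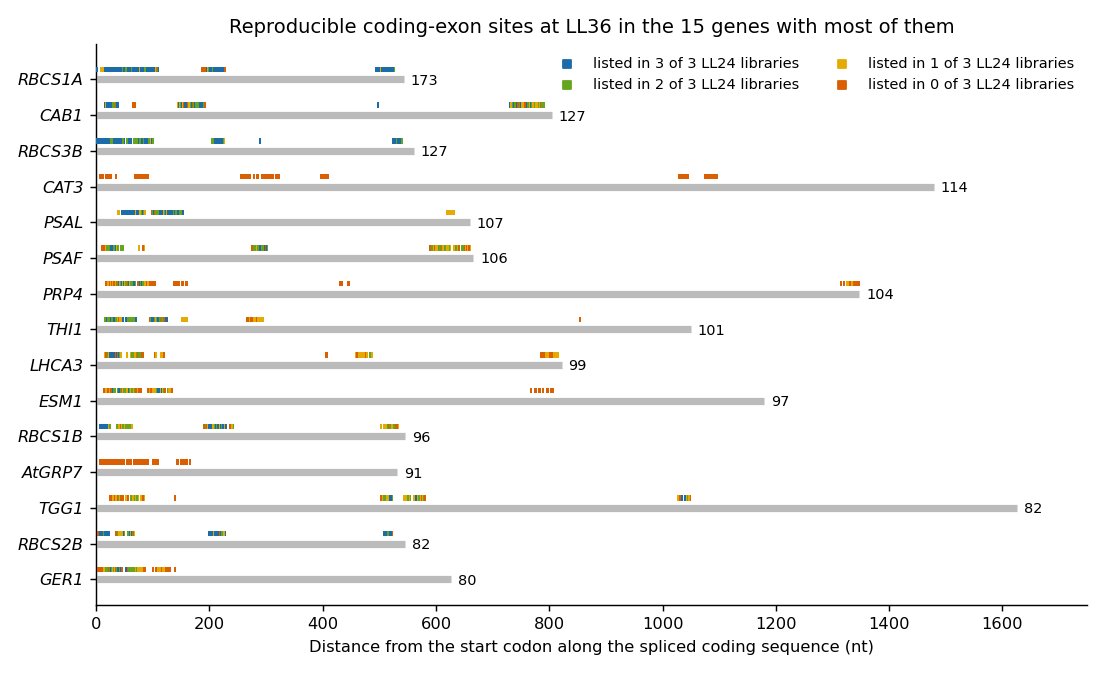
Each row is 1 of the 15 genes with most coding-exon sites, with its spliced coding sequence as a grey bar (x axis, nt from the start codon) and its sites as ticks above the bar, coloured by the number of LL24 libraries that list them. The numbers at the right are sites per gene, from 173 in RBCS1A to 80 in GER1. Every row has ticks near the left end, CAB1 and PSAF also have many near the right end, and those of CAT3 and AtGRP7 are all of the colour for 0 of 3.

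The gene groups differed in how many of their members carried a site. The subunits of photosystems I and II had a coding-exon site in 27 of 29 genes (93.1%), with 1092 sites in all. The light-harvesting antenna had one in 15 of 19 genes (662 sites), and rubisco, its activase and the Calvin-Benson cycle in 12 of 14 genes (795 sites). Photorespiration had 6 of 10 genes and 142 sites, led by SHM1 for a mitochondrial serine hydroxymethyltransferase with 58. Among genes whose product text names a ribosomal protein and no organelle, the number was 34 of 329 (10.3%) with 189 sites, led by RPL21C (18), LOS1 (17) and emb1473 (17). This list was drawn from product text and is no pure class of cytosolic ribosomal proteins: RPL21C and emb1473 belong to chloroplast ribosomes, and LOS1 is an elongation factor that is also among the translation factors. Only 1 of the 3 catalase genes, CAT3, carried sites, and of 12 cold-regulated genes 3 did, with 9 sites in COR413-PM1, 2 in COR15A and 1 in COR15B. Of 22 aquaporin genes 5 had sites (91 in all). Among 8 genes of the clock or its output there were CCL with 20 sites and DRM2 with 7, and of 6 glycine-rich RNA-binding proteins there were AtGRP7 with 91 and AtGRP8 with 4. These shares compare with 1.37% of all coding genes. How far they follow transcript abundance was not tested.

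Most of these transcripts were also crosslinked outside the coding part. Reproducible sites in the 3′ UTR were found for 231 of the 377 genes, in the 5′ UTR for 126 and in introns for 14. 128 genes had reproducible sites in coding exons only, with 712 sites. The most sites among them were found in PEN3 (45), for an ABC transporter of the plasma membrane, KCS6 (42), an enzyme that elongates very long fatty acids of the cuticle, AT4G16980 (34), of the arabinogalactan protein family, AT1G72645 (33), uncharacterized, and SNG1 (23), for an enzyme that makes sinapoylmalate. HSPRO2, linked to basal resistance, had only 2 coding sites (nt 120 and 127) and no other reproducible site. FNR2, for a ferredoxin-NADP oxidoreductase, had 29 coding sites beside 20 in the 5′ UTR and 22 in the 3′ UTR. In AtGRP7 itself, 91 of 229 reproducible sites were coding, with 59 in the intron, 69 in the 3′ UTR and 10 in the 5′ UTR. Reads of the transgene and of the grp7-1 locus cannot be told apart at these positions.

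The sites were found mainly in the beginning of the coding sequence. The first 10% of the coding sequence held 2739 sites (40.4%), against 10.0% of all coding positions of the same genes, and the next 10% held 1215 (17.9%). In the first 60 nt, that is the first 20 codons, there were 2358 sites (34.8%), against 6.33% of the coding positions, or 5.50 times the even share. Between nt 61 and 150 there were 1559 sites (23.0%, against 9.49% of positions). Beyond nt 600 there were 932 (13.8%, against 43.2%). The first 300 nt held 70.5% of the sites and 31.3% of the positions. In the 237 genes with a coding sequence above 600 nt, 2903 of 4374 sites (66.4%) lay in the first 300 nt, against 23.97% of positions. The excess in the first 300 nt differed between gene groups. It was small in photosystem subunits (56.1% of sites, against 51.5% of positions) and in the antenna (46.7%, against 37.4%). In rubisco, activase and Calvin-Benson cycle genes it was large (72.3%, against 26.9%). By gene, 221 of 377 genes (58.6%) had at least 1 site in the first 20 codons, and the median site lay in the first 50% of the coding sequence for 293 genes (77.7%). Only 21 sites, in 16 genes, fell on the start codon itself.

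A smaller rise stood at the end of the coding sequence. The last 60 nt held 932 sites (13.8%) in 88 genes, against 6.33% of the positions, or 2.17 times the even share, while the 90 nt before them held 448 (6.61%, against 9.49%). 32 sites in 14 genes lay on the stop codon. PSAN, for a subunit of photosystem I, had 48 of its 71 sites in the last 60 nt, PSBW, for a small subunit of photosystem II, 46 of 69, and CAB1 43 of 127. In PSBW all 69 sites formed 1 group between nt 317 and the last base at nt 402, as in the PSBW stretch above, and none lay in the first 300 nt. GRP-3, for a glycine-rich cell wall protein, had the opposite layout, with all 59 sites between nt 4 and nt 70 and 54 of them in the first 60 nt. 27 genes had sites in both the first and the last 60 nt.

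The density along the mRNA was uneven at the borders with the UTRs. From 30 to 39 nt after the first base of the start codon, 13.7% of positions in the gene models with sites were reproducible sites, against 4.85% in the first 10 coding nt and 4.11% in the 10 nt of 5′ UTR just before them. From 11 to 20 nt upstream of the start codon the share was 7.73%. At the other end, 4.88% of positions were sites 21 to 30 nt before the end of the stop codon, 2.86% in the last 10 coding nt and 1.66% in the first 10 nt of the 3′ UTR. It was 14.9% from 70 to 79 nt into the 3′ UTR. The gene models were chosen for having coding-exon sites, which raises the coding shares by selection, and how far it changes those of the UTRs was not tested. Nothing is therefore read from the difference between coding and UTR shares. Significance had been computed for each transcript region on its own with crosslinks summed over 15 nt on either side, and its part in the low values at the borders was not tested.

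**Figure D2:**
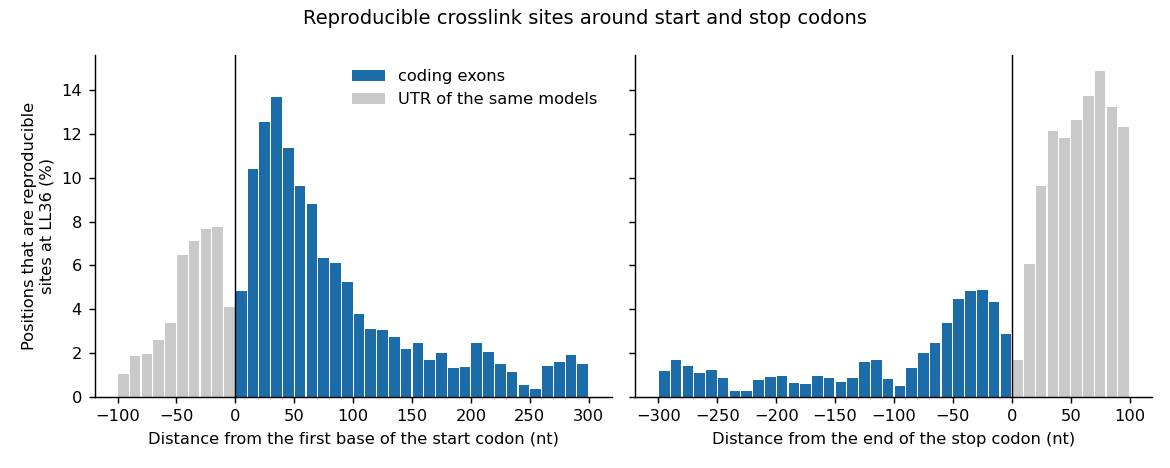
Percent of positions that were reproducible sites at LL36 (y axis) in bins of 10 nt from the start codon (left) and from the end of the stop codon (right), with coding bins in blue and UTR bins of the same gene models in grey. The coding share peaks at 13.7% from 30 to 39 nt after the start and at 4.88% shortly before the end of the coding sequence. The models were chosen for having coding-exon sites, so that coding and UTR shares are not on an equal footing.

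Sites lay less often next to exon-exon junctions than coding positions did. Among 5459 sites in exons with a junction, 96 (1.76%) were in the 5 nt next to it, against 4.05% of positions, and 140 (2.56%) in the following 5 nt, against 4.05%. Up to 20 nt from a junction there were 556 sites (10.2%), in 69 genes, against 16.9% of positions. Of these 303 lay after the junction and 253 before it. At 100 nt or more there were 2767 sites (50.7%, against 42.9%). In models with several coding exons the first coding exon held 59.3% of sites, against 22.8% of positions, the inner ones 22.7%, against 51.2%, and the last one 18.0%, against 26.0%. 20 groups of sites, with 395 sites in 19 genes, continued over a junction, as in SHM1 with 45 sites in exon 1 and 10 in exon 2 and in PETC with 4 and 30.

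PSBR, for a subunit of photosystem II, had the most sites within 5 nt of a junction, namely 11, followed by CAT3 with 6. PRP4, SHM1, FSD1 for an iron superoxide dismutase, and PETC for the Rieske iron-sulfur protein of the cytochrome b6f complex had 5 each. In PSBR the uridine at coding nt 279, the fourth base of exon 4, had counts of 133, 115, 90 and 69 in LL36 replicates 1, 2, 4 and 5 and was not listed in replicate 3. The uridine at nt 231 in exon 3 (position 29736492 of chromosome 1), 12 bases into the exon, had 158, 213, 64, 175 and 178 crosslinks at LL36, against 59, 139 and 66 at LL24. In CAT3 the uridine at nt 18, the third base of exon 2, had 30, 16, 3, 22 and 15 crosslinks at LL36. Replicate 3 was the lowest or was not listed at all 3 sites.

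The crosslinked base was mostly a uridine. Of the 6776 sites 3758 (55.5%) were uridines, against 26.3% of the coding positions of the same genes, 19.2% were cytidines (22.7% of positions), 15.2% adenosines (26.6%) and 10.1% guanosines (24.5%). The base before the site was a uridine in 45.2% and a cytidine in 30.1% of cases, and the base after it a cytidine in 33.9%. Within 10 nt on either side, U and C together made up 61.3% of the bases, against 48.99% around all coding positions. When each gene was weighted equally the share of uridines was 71.4%, and when groups of sites were reduced to their middle site it was 66.3%. In RBCS1A, where the sites were densest, 29.5% of 173 sites were uridines, against 73.3% of the 45 sites of PEN3.

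**Figure D3:**
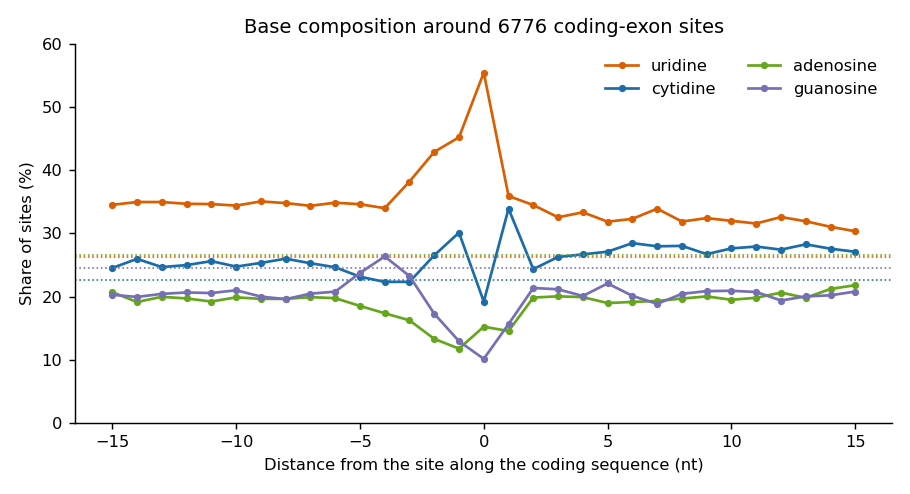
Share of sites (y axis, %) with each base from 15 nt before to 15 nt after the site along the spliced coding sequence, with dotted lines for all coding positions of the same genes. Uridine reaches 55.5% at the site itself and falls to 35.9% on the next base, where cytidine reaches 33.9%.

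Over all bases the codon positions held similar shares of sites, while for uridines the rate differed by position. The first, second and last codon positions held 33.7%, 34.1% and 32.2% of sites, where an even share is 33.3%. Uridines in the first codon position were sites at 49.7 per 1000 such positions, those in the second at 40.8 and those in the last at 33.3. Codons made of 3 pyrimidines held 39.1% of sites, against 15.4% of positions, and codons without pyrimidines 4.66%, against 18.9%. The highest rates were found for the serine codon TCT (631 sites in 163 genes, 77.8 per 1000 positions) and the phenylalanine codons TTC (570 sites, 59.4 per 1000) and TTT (379 sites, 57.8 per 1000). By residue, phenylalanine codons held 14.01% of sites, against 4.52% of positions, serine codons 18.6%, against 8.12%, and leucine codons 17.0%, against 8.81%. Codons for glutamate (1.18%, against 5.82%) and lysine (2.08%, against 6.72%) were at the low end.

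Pentamers rich in U or C were frequent around the sites. A window of 21 nt around the site contained TTTCT in 11.6% of cases, against 3.06% of windows around all coding positions of the same genes, TCTTC in 15.8% (4.74%), TTCTT in 14.1% (4.42%) and TGTTT in 8.29% (2.44%). These pentamers overlap each other, as in the PRP4 stretch above, and were searched on the coding strand only. TTTTT was found in 2.15%, against 0.918%, and the hexamer TTCTGG in 1.45%, against 0.603%. Since adjacent sites share most of their window, the shares describe the sites and carry no test.

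Counts per site were mostly low, with a few high positions. Averaged over the libraries that listed a site, the median was 4.00 crosslinks (quartiles 2.40 and 7.40). The highest site was a uridine at coding nt 509 of RBCS1A (position 25048499 of chromosome 1), in exon 3, the second base of a TTC codon for phenylalanine. It had 1053, 1231, 473, 705 and 392 crosslinks in the LL36 libraries (mean 771 ± 363, SD, n = 5), against 291, 391 and 171 at LL24. The next highest means were found in the same gene, with 367 at nt 98 and 261 at nt 71. Together the sites carried 18.6% to 27.2% of all listed crosslinks of the LL36 libraries and 21% to 28.6% of those at LL24. RBCS1A alone held 14.99% to 16.8% of the crosslinks at these sites in the 5 LL36 libraries, against 18.3% to 26.0% in the 3 LL24 libraries, where it was highest in the shallowest and lowest in the deepest library. The sites were chosen at LL36, and genes with none listed at LL24 count only in the LL36 totals, so that nothing is read from the difference.

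The other rubisco small subunit genes had their highest count at the matching base. It was nt 509 of RBCS1B and RBCS2B and nt 524 of RBCS3B, 202 nt after the last junction as in RBCS1A. The 30 nt around it are shown because they are nearly the same in the 4 genes (capitals mark sites, the base is letter 16).
RBCS1A, nt 494 to 523: TCCAGTGCATCAGTTTCATTGCCTACAAgC
RBCS1B, nt 494 to 523: tccaatgcaTcagtTTCATTGCCTAcAAgC
RBCS2B, nt 494 to 523: tccaatgcatcagttTCATTGCCTAcAAGC
RBCS3B, nt 509 to 538: tccaatgcatcagttTCATTGCCTACAAgc
RBCS1A (chr1:25048485-25048514) differs from each of the others in 1 of the 30 letters, and RBCS1B (chr5:15384373-15384402), RBCS2B (chr5:15381226-15381255) and RBCS3B (chr5:15377524-15377553) do not differ, all on the minus strand. The counts at LL36 were 228, 259, 103 and 127 in RBCS3B (not listed in replicate 5), 125, 129, 40, 68 and 36 in RBCS2B, and 82, 108, 47 and 40 in RBCS1B (not listed in replicate 5). In this stretch 29 bases were sites in RBCS1A and 13 to 15 in the other genes, mainly from the shared base onwards. The coding sequences of RBCS1B and RBCS2B are 97.3% identical, and 68 coding positions were sites in both, which is 70.8% of the sites of RBCS1B and 82.9% of those of RBCS2B. Only uniquely mapped reads were kept, so that the split of reads among these genes is uncertain.

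Other single positions stood out. The uridine at nt 55 of AT1G72645 (position 27348666 of chromosome 1) had 293, 353, 217, 142 and 162 crosslinks at LL36, against 102, 75 and 58 at LL24. In CAB1 the uridine at nt 159 (position 10478229 of chromosome 1) had 287, 328, 119, 47 and 107 crosslinks, against 30, 29 and 37. PSAL had its highest count at nt 74, the last letter of the PSAL stretch above, with 156, 186, 72, 113 and 89 crosslinks, against 41, 62 and 29. In GRP-3 the uridine at nt 32 had 207, 218, 71, 80 and 171, against 22, 44 and 16. At each of these 4 sites the highest count at LL36 was in replicate 2 and all LL36 counts were above those at LL24, and the deeper LL36 libraries were not scaled to the LL24 ones.

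**Figure D4:**
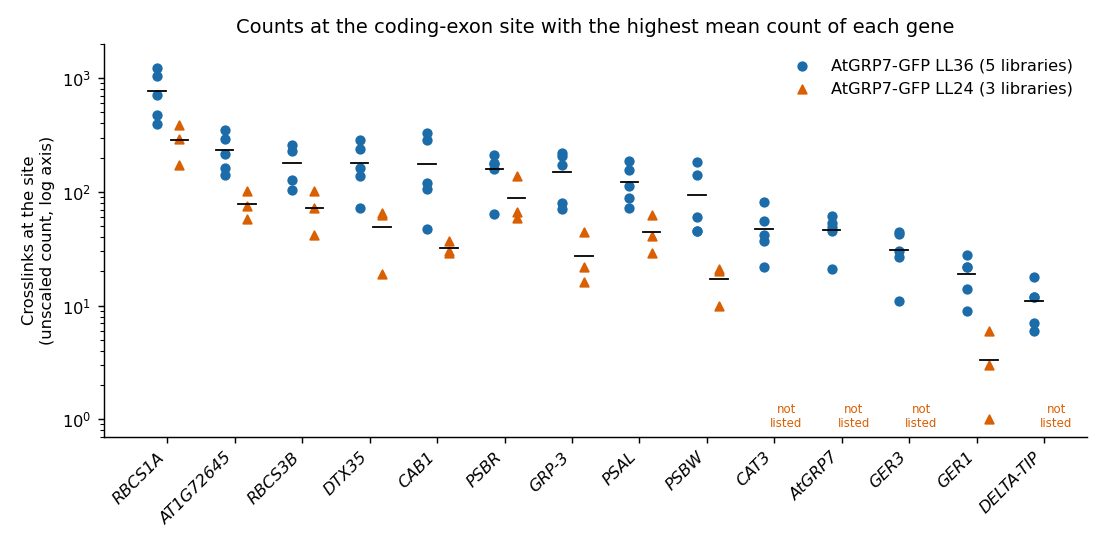
Unscaled crosslink counts (log axis) at the site with the highest mean count of 14 genes, with circles for the 5 AtGRP7-GFP libraries at LL36, triangles for the 3 at LL24 and bars for the means over listing libraries. RBCS1A reaches 1231 crosslinks at LL36. CAT3, AtGRP7, GER3 and DELTA-TIP have no listed count at LL24.

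At LL24 a part of these sites was listed again. Of the 6776 sites, 4303 (63.5%) were listed in at least 1 of the 3 LL24 libraries, 2518 (37.2%) in at least 2 and 1168 (17.2%) in all 3. The values over all 19109 reproducible positions were 65.4%, 39.6% and 19.6%. The 37.2% became 21.5% without LL24 replicate 1 and 18.9% without LL24 replicate 2, when both of the remaining libraries had to list a site. The 3 LL24 libraries listed 2609 (38.5%), 3673 (54.2%) and 1707 (25.2%) of the coding sites, most in replicate 2, the deepest, and fewest in replicate 3, the shallowest. The sites in 3′ UTRs were listed at 42.4%, 61.3% and 28.2%. The difference of coding sites to 3′ UTR sites was -3.92, -7.05 and -2.96 percentage points in replicates 1, 2 and 3 (mean difference -4.65 ± 2.14, SD, n = 3). The difference was in the same direction in 3 of 3 libraries, and the two-sided exact sign-flip permutation test gave p = 0.25, the smallest value that 3 libraries allow. Over only the genes with reproducible sites in both regions, the mean difference was -9.90 percentage points. Against 5′ UTR sites the mean difference was 1.08 percentage points, with 2.40, 2.67 and -1.82 in the 3 libraries (exact sign-flip permutation test, p = 0.50).

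Sites with more crosslinks at LL36 were listed at LL24 more often. The sites were divided into 4 equal classes by mean LL36 count. In the lowest class (1.00 to 2.40 crosslinks) 15.3% of sites were listed in at least 2 LL24 libraries, in the next class (to 4.00) 27.3%, in the third (to 7.40) 40.1% and in the highest 65.9%. The share was 56.6% for sites listed in all 5 LL36 libraries, against 21.4% for those listed in 4. Place mattered less, with 37.5% in the first of 3 equal parts of the coding sequence, 39.3% in the middle one and 34.9% in the last. Within 20 nt of a junction it was 32.2%, against 37.4% farther away.

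**Figure D5:**
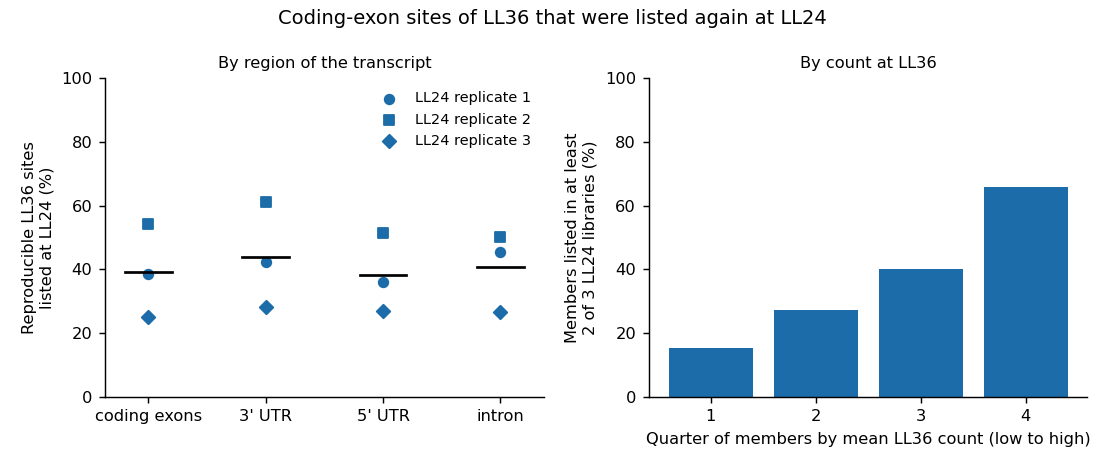
Left, percent of reproducible LL36 sites listed in each of the 3 LL24 libraries (symbols, with their mean as a bar) for coding exons and the other regions. Right, percent of coding-exon sites listed in at least 2 of 3 LL24 libraries in each of 4 equal classes of mean LL36 count. The coding symbols run from 25.2% to 54.2%, and the bars on the right from 15.3% to 65.9%.

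The genes differed widely in this respect. Of 162 genes with at least 10 sites, the share listed in at least 2 LL24 libraries had a median of 32.9% and ran from 0% to 96.2%. RBCS1A had 151, 158 and 145 of its 173 sites listed in the 3 LL24 libraries and 139 in all 3. The next most sites in all 3 were found in RBCS3B (85), PSAL (59), RBCS2B (42) and CAB1 (38). By group, 63.6% of the sites in rubisco, activase and Calvin-Benson cycle genes were listed in at least 2 LL24 libraries, 46.9% in photosystem subunits and 41.4% in the antenna, but 7.41% in the genes listed by product text as ribosomal proteins. The value over all coding sites was 37.2%.

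For 140 genes with 857 sites, no site was listed in any LL24 library. Of these genes, 40 had only 1 site. Their median site count was 3.00, against 14 for the 237 genes with a site listed at LL24, and 61 of them had no listed position in any region at LL24. The most sites among them were found in CAT3. Its 114 sites were listed 112, 114, 82, 95 and 112 times in the LL36 libraries and 0 times in each LL24 library. Over the whole gene, CAT3 had 322, 348, 177, 231 and 285 listed positions in the LL36 libraries and none in the 3 LL24 libraries. Sites of CAT3 had a median mean count of 4.00. The part of library depth in this pattern was not tested.

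AtGRP7 was similar. Its 91 sites were listed 89, 89, 76, 77 and 88 times in the LL36 libraries and 0 times at LL24, and the whole gene had 296, 355, 214, 262 and 269 listed positions at LL36, against 0, 3 and 0 at LL24. The sites fell into a group of 74 between nt 6 and nt 109 in exon 1, which holds the AtGRP7 stretch above, and a group of 17 between nt 142 and nt 166 in exon 2. The highest was the uridine at nt 152, with 53, 45, 21, 61 and 49 crosslinks. GER3, for another germin-like protein, had 46 sites in 1 group between nt 23 and nt 89, with 176, 198, 102, 111 and 167 listed positions over the gene at LL36, against 14, 9 and 2 at LL24, none of them at a site. DELTA-TIP, for an aquaporin of the vacuole membrane, had 38 sites, with 16, 24 and 2 listed positions elsewhere in the gene at LL24. MEE14 (30 sites) and DRM2 (7 sites) had no listed position at LL24 in any region, against 73 to 166 and 53 to 104 at LL36. Of the 20 sites of CCL none was listed at LL24, where 1 of the 3 libraries had 8 positions elsewhere in the gene. FNR2 had 4 of its 29 sites listed in LL24 replicate 2 and none in replicates 1 and 3. AtGRP7, GER3, DELTA-TIP and MEE14 were chosen for their pattern at LL24, and CCL, DRM2 and FNR2 because the study shows them. The values carry no test.

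The layout of all coding sites listed in a library was then compared between LL36 and LL24, and over all genes no difference beyond the spread of the libraries was detected. Of all placed sites of a library, 41.1% ± 3.45 lay in coding exons at LL36 (SD, n = 5) and 39.4% ± 1.34 at LL24 (SD, n = 3). The first 300 nt held 64.0% ± 7.64 of coding sites at LL36, against 71.5% ± 5.56 at LL24, with ranges of 58.3% to 76.2% and 66.1% to 77.2%. The mean relative place, from 0 at the start to 1 at the end of the coding sequence, was 0.346 ± 0.057 at LL36, against 0.307 ± 0.027 at LL24. Uridines made up 49.4% ± 2.09 of coding sites at LL36, against 51.5% ± 0.447 at LL24. Sites within 20 nt of a junction made up 10.8% ± 0.760, against 9.59% ± 0.949. Two-sided exact permutation tests over the libraries gave p from 0.107 to 0.464 for the 6 measures, and from 0.357 to 0.464 after Benjamini-Hochberg adjustment. The smallest possible value for 5 against 3 libraries is 0.0357 before adjustment. A single measure at that value would not pass 0.05 after adjustment over the 6, so that the adjusted tests could call little. Over only the 117 genes with a coding site in every AtGRP7-GFP library, the difference, LL36 minus LL24, was -6.35 percentage points in the uridine share and 0.93 in the junction share, each with an exact permutation p of 0.0357 before adjustment. Every LL24 library had fewer crosslinks than every LL36 library, so that time point and depth cannot be told apart in these comparisons. In each of the 3 LL24 libraries, which had not been used to choose the sites, at least 66.1% of coding sites lay in the first 300 nt and at least 51.1% were uridines. In AtGRP7 R49Q-GFP replicate 2 at LL24 and replicate 2 at LL36, the shares were 65.5% and 68.3% in the first 300 nt and 52.8% and 54.8% uridines. Replicate 1 at LL24, with 232 coding sites, had 53.4% in the first 300 nt and 52.6% uridines. These shares were 51.9% and 48.1% in replicate 3 at LL24 (27 coding sites). They were 50.0% and 62.5% in replicate 1 at LL36 (8 coding sites). In the 8 GFP-only libraries, 23.8% to 62.5% of coding sites lay in the first 300 nt, with the 62.5% in a library of 8 coding sites, and 33.3% to 50.8% were uridines.

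Control libraries, which were shallower, listed few of these sites. 18 sites (0.266%) were listed in any GFP-only library at LL36, against 0.848% of all reproducible positions, and 84 (1.24%) in any at LL24, against 1.37%. In AtGRP7 R49Q-GFP plants 156 (2.30%) were listed at LL36, against 2.34%, and 618 (9.12%) at LL24, against 9.98%. The coding positions listed in these control groups were themselves few. AtGRP7 R49Q-GFP plants listed 214 at LL36 and 1274 at LL24, beside the 156 and 618 sites. GFP-only plants listed 115 at LL36 and 253 at LL24, beside the 18 and 84 sites. In all, 732 sites (10.8%, against 11.5%) in 73 genes were listed in at least 1 of the 13 control libraries, and 145 in at least 2. The sites listed in at least 2 lay in 21 genes, with 40 in RBCS1A, 19 in PSAL, 15 in RBCS3B and 10 each in GRP-3 and DTX35. The highest site of RBCS1A, at nt 509, had 50 crosslinks in replicate 2 of AtGRP7 R49Q-GFP at LL24, 16 in replicate 2 of AtGRP7 R49Q-GFP at LL36, and 24 and 15 in replicates 1 and 2 of GFP-only at LL24. For LL24, the paper reports rubisco small subunit transcripts in its controls. Transcripts with significant sites in controls were left out of its targets, whereas no gene was left out here for that reason. DTX35, annotated for an efflux carrier, stood apart, with 14 sites in 1 group between nt 1482 and nt 1508 of exon 8. The paper names several tRNAs among the transcripts in its controls. Whether these 14 sites overlap a tRNA gene was not examined here. The uridine at nt 1502 of DTX35 (position 13076619 of chromosome 4) had 240, 284, 162, 72 and 138 crosslinks in AtGRP7-GFP plants at LL36. It was listed in 10 of the 13 control libraries with 1 to 23 crosslinks. DTX35 and PSBR were the only genes with coding sites among the 4 genes that had reproducible sites in a control at LL36, and held 92 of the 6776 sites.

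The share of coding sites did not separate the genotypes at LL36. It averaged 41.1% ± 3.45 for AtGRP7-GFP, against 37.0% ± 7.90 with a range of 28.2% to 47.1% for GFP-only (SD, 5 libraries each, two-sided exact permutation test, p = 0.317). The AtGRP7 R49Q-GFP libraries had 80.0% (8 of 10 sites, 95% interval 44.4% to 97.5%) and 39.9% (208 of 521 sites, 35.7% to 44.3%). The exact permutation test gave p = 0.381, where 5 against 2 libraries cannot go below 0.0952. At LL24 the share was 39.4% ± 1.34 in AtGRP7-GFP libraries, against 56.9% ± 7.06 for GFP-only (SD, 3 libraries each), and the groups did not overlap. The exact permutation p of 0.10 is the smallest that 3 against 3 libraries allow. The GFP-only shares at LL24 rested on 104 of 198, 148 of 279 and 13 of 20 placed sites, the last with a 95% interval of 40.8% to 84.6%. At LL36 the difference had the other direction, with the lower mean in GFP-only. AtGRP7 R49Q-GFP libraries had 43.9% ± 10.9 at LL24 (exact permutation test, p = 0.90).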

How the data were processed

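iCLIP libraries of 5 AtGRP7-GFP, 2 AtGRP7 R49Q-GFP and 5 GFP-only samples at LL36, and 3 of each at LL24, were used. The deposited values are counts, that is, the number of unique reads that mark a position. They are given for listed positions only, which are more than the paper reports as significant. According to the submitters' notes and the methods, adapters were trimmed with cutadapt 1.9.1, PCR duplicates were removed by random barcodes, and reads were mapped with STAR 2.5.2a to TAIR10 with up to 3 mismatches, keeping unique hits. Per the methods, crosslinks summed over 15 nt on either side were compared with 100 random placements for each transcript region, and positions with an FDR below 0.05 in at least 95% of 1000 repeats were kept. Whether the deposited lists had passed the repeats is not given in the sources used here. Replicates were not pooled.

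Here, start coordinates were raised by 1 and placed in the named gene model of the TAIR10.1 annotation, whose chromosomes have the TAIR10 lengths. Of 315156 entries 99.1% were placed, 940 named a model not in that annotation and 1821 lay outside it. Gene symbols come from RefSeq. The members, gene lists and tests were chosen with earlier results of these data known. All coding positions of the same gene models served as the background. Regions are compared between the 3 LL24 libraries by exact sign-flip tests, and groups of libraries by exact permutation tests, two-sided with the smaller tail doubled (significance level 0.05). Samples carry the labels' replicate numbers, and p-values measure the spread between these pooled plant samples. Named genes are the 15 with most sites, those with most coding sites without other regions, with the highest counts, at junctions or ends, with most or no recurrence at LL24, at positions listed in at least 2 controls, and 4 genes shown by the study. Alternatives were other library minimums, position tolerances, merging within 10 nt, weighting by gene, windows, a minimum of 2 crosslinks, a fit blocked on replicate numbers, and single libraries left out. Leaving out LL36 libraries for the recurrence and the profile, and leaving out the 10 genes with most sites for the profile, was added after the data were seen. Coordinate maps and tests were checked on simulated data. Calculations used scipy 1.17.1, pandas 2.3.3 and numpy 2.4.6 in Python 3.11.15, and plots matplotlib 3.10.9. RNA-seq and RIP-seq data were not analysed here.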

Additional observations from a re-analysis of the deposited data

Results flagged for a closer look

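Among 55 sets of library values (the measures of coding sites in AtGRP7-GFP and GFP-only libraries at LL36 and the counts at the highest sites of the named genes), no library lay far enough from the others to stand apart by Dixon's criterion.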

How the results depend on the processing

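The number of coding-exon sites was 12899 with at least 3 of 5 libraries, 3034 with all 5, and 7457 to 10824 when 1 LL36 library was left out and 3 of the other 4 were required (10725 without replicate 3 and 10824 without replicate 4, the shallowest of the 5). Recurrence at LL24 was 63.5% for at least 1 of 3 libraries, 17.2% for 3 of 3, 57.4% within 3 nt and 56.6% for sites listed in all 5 LL36 libraries, and 18.9% to 34.8% when 1 library was left out, with 21.5% without LL24 replicate 1 and 18.9% without LL24 replicate 2. The difference to 5′ UTR sites turned to -0.32 percentage points within 3 nt, and ran from -1.82 to 2.54 when libraries were left out. That to 3′ UTR sites stayed negative, from -9.90 in genes with both kinds of site to -3.35 within 3 nt. Between LL36 and LL24, the coding share turned to -0.44 with genes weighted equally, and codon position 1 to 1.68 with sites merged and 0.38 with genes weighted equally. Over the 117 genes with a coding site in every AtGRP7-GFP library, the difference, LL36 minus LL24, was -6.35 percentage points in the uridine share and 0.93 in the junction share, both with an exact permutation p of 0.0357 before adjustment, the smallest that 5 against 3 libraries allow. Time point and library depth cannot be told apart in these 2 differences. The difference in coding share to AtGRP7 R49Q-GFP ran from -38.9 to 1.20 percentage points when libraries were left out, with 1.20 without its replicate 1, which had 10 placed sites. The causes of these changes were not tested.

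In the profile, the first 150 nt held 57.8% of sites (15.8% of positions) and the first 600 nt 86.2% (56.8%). Within 10 nt of a junction lay 4.80% (8.91%) and within 50 nt 28.3% (37.8%). The share within 20 nt was 9.18% for sites in all 5 libraries, 11.3% without the 10 genes with most sites and 10.2% to 11.1% without 1 library. Uridines were 66.3% with sites merged, 71.4% with genes weighted equally, 52.4% for at least 3 libraries, 59.2% for all 5, 58.7% without the 10 genes and 52.7% to 54.8% without 1 library. Codon position 1 held 37.0% with sites merged, and U and C in the flanks were 62.5% for all 5 libraries and 60.5% to 61.4% without 1 library. The share in the first 300 nt stayed between 63.7% and 71.6% without 1 library.

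With the replicate number as a block, the differences between LL36 and LL24 were 2.24 percentage points in coding share, 0.0751 in relative place, -12.5 in the first 300 nt, 1.12 at junctions, -3.11 in uridines and -0.28 in codon position 1 (exact sign-flip p 0.25 or 0.50). Those in coding share were 4.10 to GFP-only (p = 0.438) and -16.0 to AtGRP7 R49Q-GFP (p = 1.00, exact sign-flip test). The differences kept the direction they had without the block. With 3 same-numbered pairs the exact sign-flip test cannot go below 0.25, so that no call at 0.05 was possible between LL36 and LL24. The pairs with GFP-only and AtGRP7 R49Q-GFP are also too few for this test to fall below 0.05. The absence of calls with the block therefore shows nothing. Deviations of same-numbered LL36 and LL24 libraries over 117 genes correlated at -0.05, 0.13 and 0.02. Those of different-numbered libraries correlated at -0.20 to 0.13, so that pairing by number was neither shown nor excluded. Shallow libraries, above all the controls with as few as 12 positions, limit what absence from a list can show.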
